A study of Mus musculus with 48 samples.

Results

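The 10 genes described here are Reg3b, Reg3g, Lcn2, Saa1, Lrg1, Duoxa2, Tifa, Nfkbiz, Zc3h12a and Socs3, genes of mucosal defence and inflammation in the gut epithelium, out of 53465 genes in the mouse count table. They were chosen from earlier results of the same libraries, by their difference between operated and sham-operated mice, so every value that compares surgery groups describes that choice, and no such value, calls and intervals included, is read as a test of them. The study asked whether vertical sleeve gastrectomy (VSG), the surgical removal of most of the stomach, alters the transcriptome of enteroendocrine cells (EECs), the hormone-secreting cells of the intestinal epithelium. RNA from sorted EECs was sequenced as 48 libraries from 17 mice, each library holding cells of 1 mouse from the duodenum (top 5 cm of the small intestine), the ileum (bottom 15 cm) or the colon (colon and rectum together). Each region had 6 libraries from VSG mice and 5 from each sham group, one fed ad libitum and one weight-matched.

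All mice were lean males on a C57BL6 background that carried Neurod1-cre with an EYFP reporter, so the sorted cells were those marked by Neurod1-driven Cre, with CD45-positive immune cells gated out. VSG mice had most of the stomach excised, whereas sham mice had only a suture line placed without constraint. Sham ad libitum mice ate chow freely, and sham weight-matched mice were given measured meals to hold their weight to that of the VSG group. All animals received liquid diet around the operation, analgesic and a course of antibiotics, and VSG mice alone received weekly vitamin B12, so that VSG and B12 cannot be told apart. Tissue was harvested after a terminal oral glucose challenge.

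The intestinal epithelium meets bacteria with secreted proteins and with oxidants. The lectins REG3B and REG3G bind bacterial surfaces and keep microbes away from the epithelium, lipocalin 2 (Lcn2) withholds iron by binding siderophores, and DUOXA2 is the maturation factor that brings the hydrogen peroxide-producing oxidase DUOX2 to the apical membrane. Such genes are induced through NF-kB below Toll-like, interleukin-1 and interleukin-17 receptors, and through STAT3 below the interleukin-22 receptor, and both routes induce their own regulators: TIFA carries a signal from the kinase ALPK1, which senses a bacterial sugar, to TRAF6, Nfkbiz encodes the nuclear cofactor IκBζ, Zc3h12a encodes the RNase Regnase-1 that degrades inflammatory mRNAs, and Socs3 encodes the feedback inhibitor of STAT3 signalling.

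Because these routes act through STAT3 and NF-kB, the promoters of the genes were searched for the motifs of both factors, and the matches are shown with 10 flanking bases on each side. In the RefSeq promoters of GRCm38.p6, 9 of the 10 genes had an entry, and in the 250 bases before the transcription start 3 of them held a match on either strand to the STAT motif TTCNNNGAA or to the kappaB consensus. The motif stands in capitals in the following runs, written 5′ to 3′ on the strand of the gene.
Reg3b, STAT motif, chr6:78370746-78370774 (+): agcctgttctTTCTTGGAAactctttgag
Reg3g, kappaB motif, chr6:78468978-78469007 (-): cgcttttgatGGGAAACCCCtagagtccat
Socs3, STAT motif, chr11:117969502-117969530 (-): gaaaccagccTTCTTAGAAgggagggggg
The motifs began 129, 123 and 154 bases before the RefSeq transcript start used for Reg3b, Reg3g and Socs3. GENCODE starts Reg3b and Socs3 further upstream, so that both their motifs lie inside the gene as it annotates them, and 74 and 77 of the 250 bases of these windows are exonic there, against 0 for Reg3g. Of 32851 promoter windows of the same length, 7.02% held the STAT motif and 3.9% the kappaB motif, so these matches describe the letters in the window and mark no bound site.

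Read counts per library summed to 4648651 to 17182463, with a median of 6713018. Levels are given as CPM, the counts scaled to a common library size, after TMM scaling, and differences as log2 fold changes with their standard error (SE) from 1 edgeR fit to all 48 libraries and to the 15126 genes left after edgeR's low-count filter. All 10 genes passed it, but Lrg1 passed through 5 VSG libraries alone and Lcn2 through 9 libraries of which 8 were VSG. The libraries of each group came from separate mice. The sum of 11 EEC marker genes, Neurod1, Chga and Chgb among them, lay between 29130 and 99240 CPM in 47 of the 48 libraries, with every marker detected in every region. The duodenum library of sham weight-matched mouse 27 stood apart at 11770 CPM, while its enterocyte markers summed to 48720 CPM against 5709 to 14720 CPM in the other 15 duodenum libraries and its Paneth cell markers to 4087 against 123 to 878 CPM. Some results are given with and without this library, and the others come from all 48 libraries unless stated. The labels of mouse 12 contradict each other on which library is ileum and which is colon. The tissue field was followed, and enterocyte markers summed to 4337 CPM or more in every library labelled ileum and to 762 CPM or less in every library labelled colon.

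**Figure D1:**
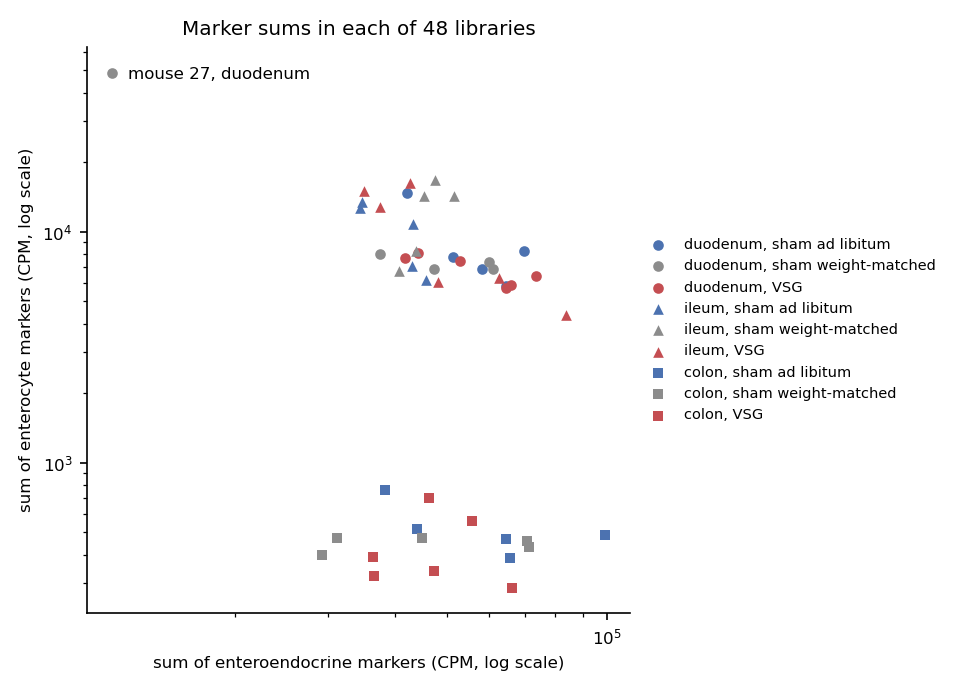
Sum of 11 enteroendocrine marker genes (x axis, CPM, log scale) against the sum of 10 enterocyte marker genes (y axis, CPM, log scale) in each of the 48 libraries, by region (shape) and surgery group (colour). The duodenum library of sham weight-matched mouse 27 lies alone at 11770 CPM of enteroendocrine and 48720 CPM of enterocyte markers.

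The Reg3 lectins were the most abundant of the 10 genes and had higher mean levels in VSG mice than in both sham groups in all 3 regions. Reg3b (ENSMUSG00000071356, chromosome 6 from 78370657 to 78373466, GRCm38) stood in the ileum at 443, 806, 885, 2251 and 2359 CPM in the sham ad libitum libraries, at 599, 727, 784, 817 and 876 CPM in the sham weight-matched libraries and between 916 and 4268 CPM, with a median of 2184, in the VSG libraries. All 6 VSG libraries were thus above all 5 weight-matched ones, by a log2 fold change of 1.68 (SE 0.66), whereas 2 sham ad libitum mice, 12 and 24, lay within the VSG range and the log2 fold change was 0.85 (SE 0.65). In the colon the same gene was at 29.99, 33.3, 47.1, 65.7 and 94.5 CPM in sham ad libitum, 29.2, 41.5, 46.8, 81.4 and 111 CPM in sham weight-matched and 62.6 to 1043 CPM in VSG libraries. There the VSG median was 92.1 CPM, within the sham ranges, and VSG mice 25 (1043 CPM) and 11 (370.0 CPM) alone stood above every sham library.

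In the duodenum, Reg3b was at 125, 163, 172, 493 and 551 CPM in sham ad libitum libraries and at 222 to 1868 CPM, with a median of 989.5, in VSG libraries. The weight-matched libraries were at 124, 195, 282 and 393 CPM, and mouse 27 at 1306 CPM. The log2 fold change against the weight-matched group was 1.08 (SE 0.65) with that library and 1.96 without it. Without VSG mouse 25, the mean difference over the 3 regions was 1.18 in place of 1.65 against sham ad libitum and 1.19 in place of 1.66 against sham weight-matched. Against sham weight-matched it was 1.94 when only the duodenum library of mouse 27 was left out.

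Reg3g (ENSMUSG00000030017, chromosome 6 from 78466269 to 78468872) had the same order of groups in the ileum, at 226 to 1398 CPM in sham ad libitum, 316 to 603 in sham weight-matched and 609 to 2394 in VSG libraries. The nearest VSG and weight-matched libraries, mouse 18 at 609 and mouse 21 at 603 CPM, were almost equal. Its log2 fold change in VSG mice was 1.87 (SE 0.62) in the duodenum, 0.96 (SE 0.60) in the ileum and 1.36 (SE 0.63) in the colon against sham ad libitum, and 1.15 (SE 0.60), 1.80 (SE 0.62) and 1.04 (SE 0.62) against sham weight-matched. Without the library of mouse 27 the duodenal difference from the weight-matched group was 2.01. Reg3b and Reg3g are close paralogs, so reads may have been split between them in a way the counts do not show.

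**Figure D2:**
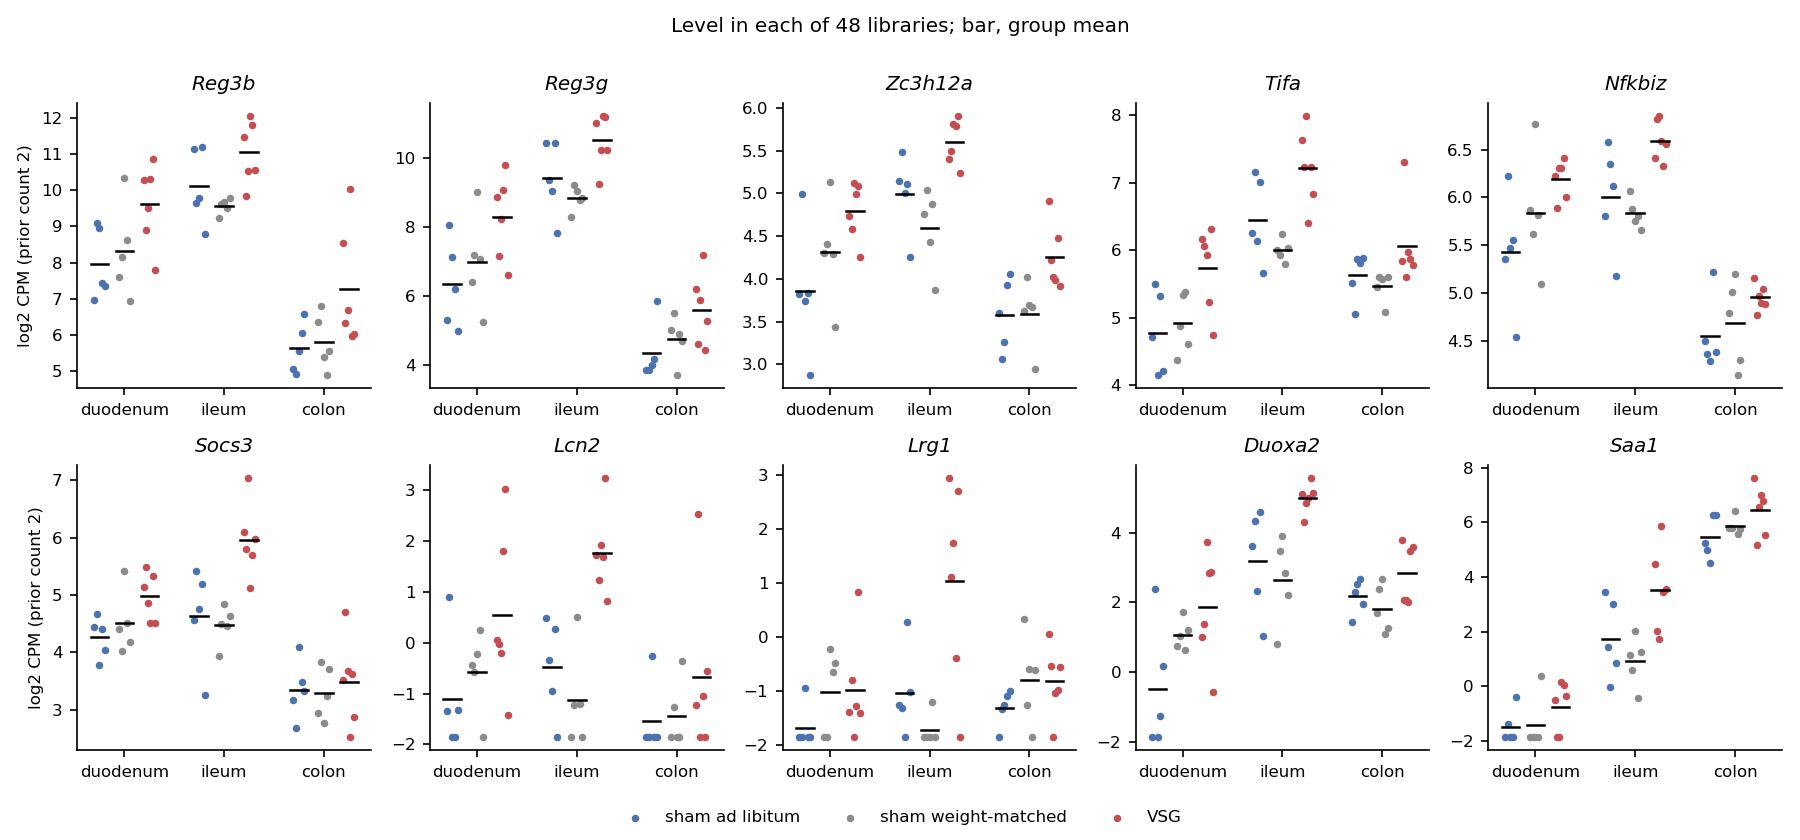
Level of each of the 10 genes (log2 CPM with a prior count of 2) in each of the 48 libraries, by region and surgery group, with the group mean as a bar. In the ileum the VSG libraries of 8 genes lie above all weight-matched libraries, and in the colon single VSG libraries stand high, such as mouse 25 for Reg3b and mouse 18 for Tifa and Lcn2.

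Lcn2 and Lrg1, both secreted proteins of the acute phase, were near the limit of detection and were counted mostly in VSG mice. Lcn2 (ENSMUSG00000026822, chromosome 2 from 32384633 to 32388252) was in the ileum at 0, 0.239, 0.512, 0.935 and 1.13 CPM in sham ad libitum, at 0, 0, 0.154, 0.160 and 1.14 CPM in sham weight-matched and at 1.49 to 9.14 CPM, with a median of 2.98, in VSG libraries. It was the only one of the 10 genes for which all VSG ileum libraries were above all libraries of both sham groups. In the colon it was at 0 in 4 of 5 sham ad libitum, 3 of 5 weight-matched and 2 of 6 VSG libraries, and VSG mouse 18 held 5.51 CPM against at most 0.562 CPM in any other colon library. The mean log2 fold change over the 3 regions was 2.66 (SE 0.66) against sham ad libitum and 2.87 (SE 0.67) against sham weight-matched, and 1.81 and 2.00 without mouse 18. Against sham ad libitum it was 3.35 without sham mouse 13 and 3.52 without sham mouse 19.

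Lrg1 (ENSMUSG00000037095, chromosome 17 from 56119678 to 56122001) had its highest levels in the ileum of VSG mice. Ileum libraries of VSG mice held 0 to 7.44 CPM, with a median of 2.48, where mouse 30 was at 0 and mouse 25 at 0.488 CPM, inside the range of 0 to 0.935 CPM of the sham ad libitum libraries. The 5 weight-matched ileum libraries held 1 count in all against 146 in the 6 VSG libraries, a ratio of CPM of 117 with an exact 95% interval from 20.7 to 4659 that covers counting error only and not the spread between mice. In the duodenum, sham ad libitum libraries held 2 counts, weight-matched libraries 9 and VSG libraries 18, of which mouse 28 held 12. Only that VSG library was above the median of the weight-matched ones. The log2 fold change against them was 0.45 (SE 0.98), and 0.93 (SE 1.105) without the library of mouse 27. In the colon, VSG mice had 0 to 0.770 CPM and weight-matched shams 0 to 0.985 CPM, with a log2 fold change of -0.22 (SE 0.96), the only negative difference between VSG and a sham group among the 10 genes.

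Saa1 (ENSMUSG00000074115, chromosome 7 from 46740497 to 46742980), an apolipoprotein of the acute phase that carries retinol and lipids, was a gene of the colon. There it was at 22.8, 31.7, 37.8, 76.2 and 76.2 CPM in sham ad libitum, at 47.1, 53.6, 55.2, 55.6 and 84.1 CPM in sham weight-matched and at 36.1 to 197 CPM, with a median of 102, in VSG libraries. VSG mice 22, 28, 25 and 11 were above every sham library, and mice 18 and 30 were within the sham range. In the ileum the VSG libraries, at 3.07 to 58.6 CPM, exceeded sham weight-matched (0.480 to 3.83 CPM) by a log2 fold change of 3.18 (SE 0.68) and sham ad libitum (0.718 to 10.6 CPM) by 1.88 (SE 0.62), and mouse 25 was highest. The duodenum held at most 1.03 CPM in any library. Saa1 is nearly identical to Saa2, so its counts are uncertain.

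Duoxa2 (ENSMUSG00000027225, chromosome 2 from 122298900 to 122302885) was in the ileum at 1.77, 4.78, 12.0, 19.7 and 23.9 CPM in sham ad libitum, at 1.48, 4.32, 6.88, 10.8 and 14.8 CPM in sham weight-matched and at 19.6 to 47.0 CPM, with a median of 32.8, in VSG libraries. VSG and weight-matched libraries did not overlap, and sham ad libitum mice 13 and 24 reached the lowest VSG level. The log2 fold change in the ileum was 2.08 (SE 0.65) against sham weight-matched and 1.37 (SE 0.63) against sham ad libitum. In the duodenum, sham ad libitum mouse 13 held 4.997 CPM and the other 4 held 0 to 0.864 CPM, and without mouse 13 the mean difference over the 3 regions was 2.22 in place of 1.33. Duoxa2 shares 682 exon bases with Duoxa1 on the opposite strand, and the strand setting of the counting was not given in the sources used here. Duoxa1 itself held 36 counts over all libraries against 2881 for Duoxa2.

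In the mean of the 3 regions, the 4 intracellular regulators had smaller differences than the other 6 genes, at 0.52 to 0.76 against sham ad libitum and 0.42 to 0.97 against sham weight-matched, with smaller SEs. Within single regions the order was mixed, as for Socs3 in the ileum. Tifa (ENSMUSG00000046688, chromosome 3 from 127789805 to 127832164) was in the ileum at 50.2, 70.3, 75.9, 129 and 142 CPM in sham ad libitum, at 55.1, 60.7, 63.6, 65.01 and 75.1 CPM in sham weight-matched and at 84.7 to 254 CPM, with a median of 150, in VSG libraries. The log2 fold change was 1.31 (SE 0.31) against sham weight-matched, with no overlap, and 0.76 (SE 0.30) against sham ad libitum. In the duodenum it was 0.88 (SE 0.31), or 0.99 without the library of mouse 27, and 0.95 (SE 0.31). In the colon, VSG mouse 18 held 158 CPM, and the other 5 VSG libraries, at 48.4 to 62.7 CPM, reached down into the range of the shams. Tifa shares 105 exon bases with Gm43654 on the opposite strand, so its counts carry the same doubt over strand as those of Duoxa2.

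Socs3 (ENSMUSG00000053113, chromosome 11 from 117966079 to 117970047) had its largest difference in the ileum, where it was at 9.29, 23.3, 26.8, 36.5 and 42.6 CPM in sham ad libitum, 15.1, 21.6, 22.2, 24.6 and 28.4 CPM in sham weight-matched and 34.4 to 132 CPM, with a median of 59.3, in VSG libraries. All VSG libraries except that of mouse 25 were above every sham library. The log2 fold change was 1.59 (SE 0.34) against sham weight-matched and 1.28 (SE 0.33) against sham ad libitum, whereas in the colon it was 0.33 (SE 0.35) and 0.27 (SE 0.35), within 1 SE of 0.

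Nfkbiz (ENSMUSG00000035356, chromosome 16 from 55811375 to 55838899) was in the ileum at 79.9 to 115 CPM in VSG, 50.1 to 66.9 CPM in sham weight-matched and 35.8 to 95.5 CPM in sham ad libitum libraries. Its log2 fold change there was 0.77 (SE 0.23) against sham weight-matched and 0.53 (SE 0.23) against sham ad libitum. In the duodenum the 6 VSG libraries lay between 58.9 and 85.0 CPM and the weight-matched ones at 33.9 to 58.0 CPM, apart from mouse 27 at 109 CPM, and the log2 fold change was 0.27 (SE 0.23) with that mouse and 0.57 without it. Zc3h12a (ENSMUSG00000042677, chromosome 4 from 125118423 to 125127840) was higher by 0.99 (SE 0.27) in the ileum, where VSG libraries had 37.5 to 59.8 CPM and weight-matched libraries 14.4 to 32.6 CPM. Against sham ad libitum, whose ileum libraries had 18.8 to 44.4 CPM, its log2 fold change was 0.58 (SE 0.27), and in the colon it was 0.68 (SE 0.28) against weight-matched and 0.70 (SE 0.28) against ad libitum shams.

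**Figure D3:**
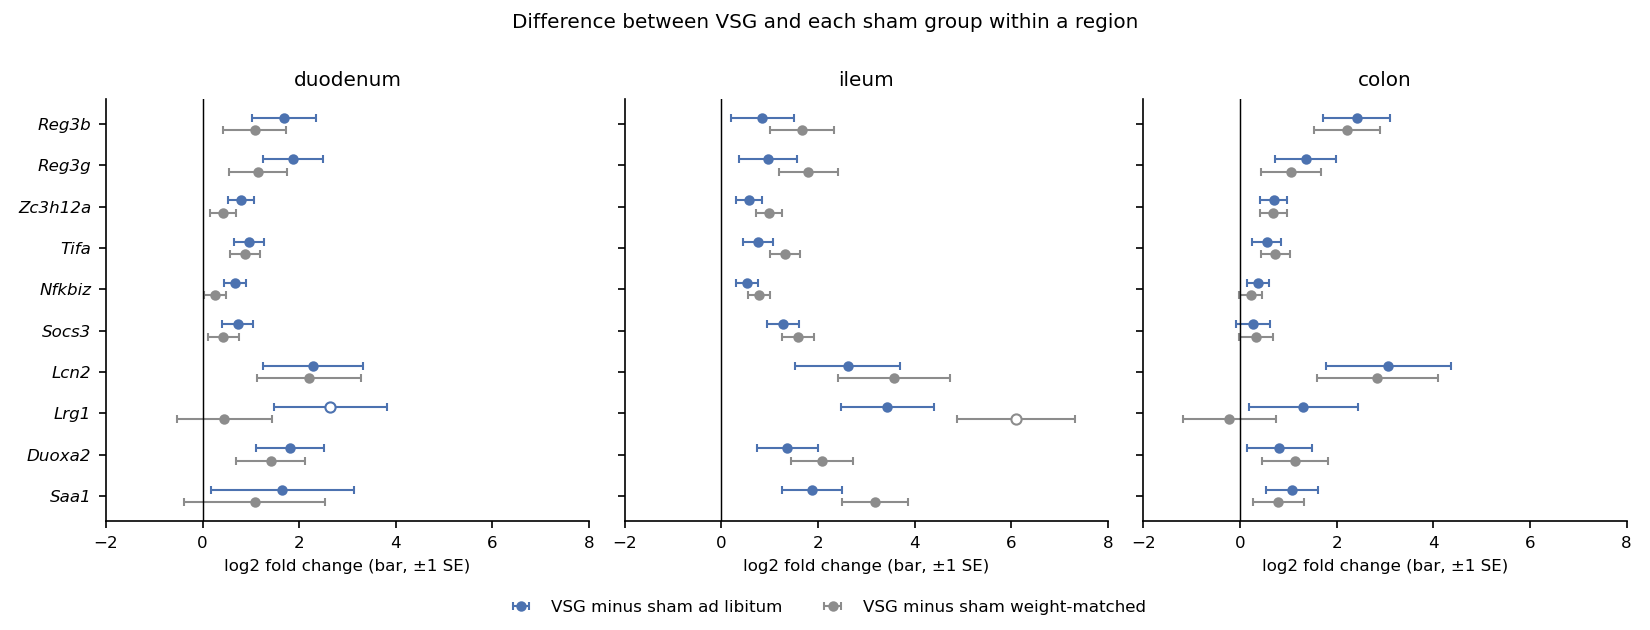
Log2 fold change of each gene in VSG mice against sham ad libitum (blue) and sham weight-matched (grey) mice within each region, with a bar of 1 SE on each side. Open points mark Lrg1 where the sham group held 3 counts or fewer, so that the fitted value depends on the prior count, and every point is above 0 except that of Lrg1 against sham weight-matched in the colon.

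Over the 10 genes, the log2 fold change in VSG mice was positive for 10 of 10 in each region against sham ad libitum, and for 10, 10 and 9 in the duodenum, ileum and colon against sham weight-matched, a pattern that the choice of the genes had fixed in part. Both comparisons use the same VSG libraries. Of all 15126 genes, 52.4% were positive in the mean of the 3 regions against sham ad libitum and 50.5% against sham weight-matched. The median log2 fold change of the 10 genes in those contrasts was 1.36 and 1.44, against 0.01 and 0.00 over all genes tested. Without the duodenum library of mouse 27 the medians of the 10 genes were 1.357 and 1.595. All VSG ileum libraries were above all weight-matched ileum libraries for 8 of the 10 genes, every one but Lrg1 and Saa1, which was so for 0.304% of all genes tested. Above all sham ad libitum ileum libraries the count was 1 of 10, Lcn2, with 0.291% of all genes. In the duodenum and colon the count was 0 of 10 in all 4 comparisons, where all genes gave 0.251% and 0.218% against sham ad libitum and 0.225% and 0.258% against sham weight-matched.

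By edgeR's quasi-likelihood test with Benjamini-Hochberg adjustment at 0.05, none of the 10 genes, and 0% of all genes, passed in VSG against sham ad libitum, whether as the mean of the 3 regions or in the duodenum (0%), the ileum (0%) or the colon (0%). An unadjusted p under 0.05 was held by 837, 370, 932 and 950 of the 15126 genes in these 4 contrasts. DESeq2 called 26, 0, 5 and 0 genes and limma voom 0, 0, 0 and 1. Against sham weight-matched, 0.245% of all genes passed in the mean of the 3 regions, and 0.225%, 0.0463% and 0.0595% in duodenum, ileum and colon, and 4, 0, 2 and 0 of the 10 genes were among them. Since these contrasts chose the genes, and Lrg1 and Lcn2 passed the filter mainly through VSG libraries, nothing is read from the counts of the 10. Over all genes, edgeR called 37, 34, 7 and 9 in these contrasts, DESeq2 102, 216, 21 and 15 and limma voom 9, 5, 7 and 9. Without the duodenum library of mouse 27, edgeR called 37, 0, 10 and 14.

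Between the sham groups, none of the 10 genes passed in the mean of the 3 regions, where 0.0529% of all genes did. The log2 fold change of sham weight-matched against sham ad libitum was negative for 10 of 10 genes in the ileum, with a median of -0.77, from -0.25 (Nfkbiz) to -1.30 (Saa1) apart from Lrg1, whose weight-matched ileum libraries held 1 count. In the duodenum it was positive for 10 of 10 with a median of 0.40, but without the library of mouse 27 for 6 of 10 with a median of 0.06. In that region mouse 27 held the highest weight-matched level for 7 of the 10 genes, and mouse 13 the highest sham ad libitum level for 8. Sham ad libitum mice were spread more widely in the ileum, where mouse 32 was lowest for 8 of the 10 genes and mice 13 and 24 were each highest for 4.

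Markers of other cell types were compared in the same libraries. In the ileum, enterocyte markers summed to a median of 9529 CPM in VSG, 10780 CPM in sham ad libitum and 14200 CPM in sham weight-matched libraries, and Paneth cell markers to 1941, 4566 and 2321 CPM, so that neither list was highest in the VSG group. The 15 immune markers summed there to 3.08 to 13.9 CPM in VSG, 7.66 to 18.03 in sham ad libitum and 6.28 to 19.3 in sham weight-matched libraries, with S100a8 and Ly6g at 0 in all 16 libraries. Stromal and endothelial markers had a median of 31.8 CPM there in VSG, 20.7 in sham ad libitum and 21.7 in sham weight-matched libraries. In the VSG ileum 7 of these 8 markers averaged under 1 CPM. Goblet cell markers had a median of 3474 CPM in the VSG ileum, against 3283 CPM in ad libitum and 4636 CPM in weight-matched shams. In the colon their VSG median of 10530 CPM was above those of ad libitum (8750 CPM) and weight-matched shams (8537 CPM). So were the VSG colon medians of immune (10.6 against 7.71 and 6.33 CPM) and tuft markers (57.9 against 47.6 and 38.0 CPM). Colonocyte and crypt markers were also highest there in VSG mice, whereas enterocyte, Paneth, stromal and EEC markers were not. Across the 48 libraries, after removal of the 9 group means, the EEC marker sum correlated with Reg3b at r = -0.54 and its r with the 10 genes ran from -0.54 to 0.05. Without the duodenum library of mouse 27 Reg3b was at -0.45, and that range was -0.53 (Saa1) to 0.29 (Socs3). The crypt and proliferation sum was positive with all 10 genes, from 0.02 (Saa1) to 0.54 (Tifa), and from 0.04 to 0.52 without that library. The enterocyte sum ran from -0.16 to 0.40, and from -0.34 to 0.43 without it, where Nfkbiz turned from 0.18 to -0.13. The immune sum ran from 0.16 to 0.44, and from 0.07 to 0.33 without it, and the tuft sum from 0.12 to 0.38, and from -0.02 to 0.29. These correlations describe libraries that share depth and scaling, and the part of other cells in the differences was not tested. In sorted bulk samples, fewer cells of a type and less RNA per cell cannot be told apart.

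The region of the intestine was not used to choose the genes, and differences between regions, averaged over the 3 surgery groups, were therefore tested. From duodenum to ileum, 7 of the 10 genes rose and none fell, where 33.8% of all genes tested changed. Reg3b rose by a log2 fold change of 1.41 (SE 0.38, adjusted p = 0.00353) and was higher in the ileum in 14 of 15 mice. Reg3g rose by 2.09 (SE 0.36, adjusted p = 1.19e-05) and Tifa by 1.40 (SE 0.18, adjusted p = 2.97e-08), each in 15 of 15 mice. Duoxa2 rose by 2.58 (SE 0.40) and Saa1 by 4.59 (SE 0.58), both in 15 of 15 mice, and Zc3h12a by 0.69 (SE 0.16) in 14 of 15. Socs3 rose by 0.49 (SE 0.19, adjusted p = 0.0406), a call lost in 11 of its 26 alternatives, with the opposite sign in 1 more. Nfkbiz differed by 0.29 (SE 0.13, adjusted p = 0.0919), and passed with the mouse as a random block in limma voom (0.32, adjusted p = 0.0254), with the mouse as a fixed block in edgeR (0.30, adjusted p = 0.0307) and without the duodenum library of mouse 27 (0.39, adjusted p = 0.00861).

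The colon had the lowest levels of both lectins and of 3 of the regulators, and the highest of Saa1. Between colon and ileum 8 of the 10 genes changed, 7 falling and Saa1 rising, against 49.2% of all genes. Reg3g fell by 4.63 (SE 0.41, adjusted p = 8.75e-13) and Reg3b by 3.78 (SE 0.42, adjusted p = 4.61e-10) on the log2 scale, and both were lower in the colon in 16 of 16 mice. Socs3 fell by 1.66 (SE 0.20), Duoxa2 by 1.55 (SE 0.39), Nfkbiz by 1.42 (SE 0.14), Zc3h12a by 1.28 (SE 0.16) and Tifa by 0.85 (SE 0.18). Saa1 rose by 3.59 (SE 0.36, adjusted p = 4.29e-11), in 16 of 16 mice.

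Between colon and duodenum 8 of 10 changed, where 55% of all genes did. Saa1 rose by 8.17 (SE 0.52), Duoxa2 by 1.04 (SE 0.41, adjusted p = 0.0294) and Tifa by 0.55 (SE 0.18, adjusted p = 0.00782), while Reg3g fell by 2.54 (SE 0.37), Reg3b by 2.38 (SE 0.40), Socs3 by 1.17 (SE 0.20), Nfkbiz by 1.14 (SE 0.14) and Zc3h12a by 0.59 (SE 0.16). In order of level, Reg3b, Reg3g, Zc3h12a and Socs3 thus ran from ileum through duodenum to colon, Tifa and Duoxa2 from ileum through colon to duodenum, Saa1 from colon through ileum to duodenum, and Nfkbiz had ileum and duodenum as neighbours above the colon, between which the call turned with the fit. Lcn2 and Lrg1 passed in none of the 3 contrasts, but for Lcn2 this depended on the fit. Between colon and ileum it had -1.60 (SE 0.74, adjusted p = 0.0684), and passed under DESeq2 (-1.69, adjusted p = 0.0473), under limma voom with the mouse as a block (-1.90, adjusted p = 0.0115) and without mouse 18, 19 or 31 (-2.58, -2.66 and -2.21). Between colon and duodenum it had -1.41 (SE 0.71, adjusted p = 0.0865), and passed without the same mice (-2.41, -2.50 and -2.02). Per kilobase of exon, mean levels in the ileum ran from 1376 CPM for Reg3b and 484 CPM for Reg3g down to 0.629 CPM for Lcn2.

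**Figure D4:**
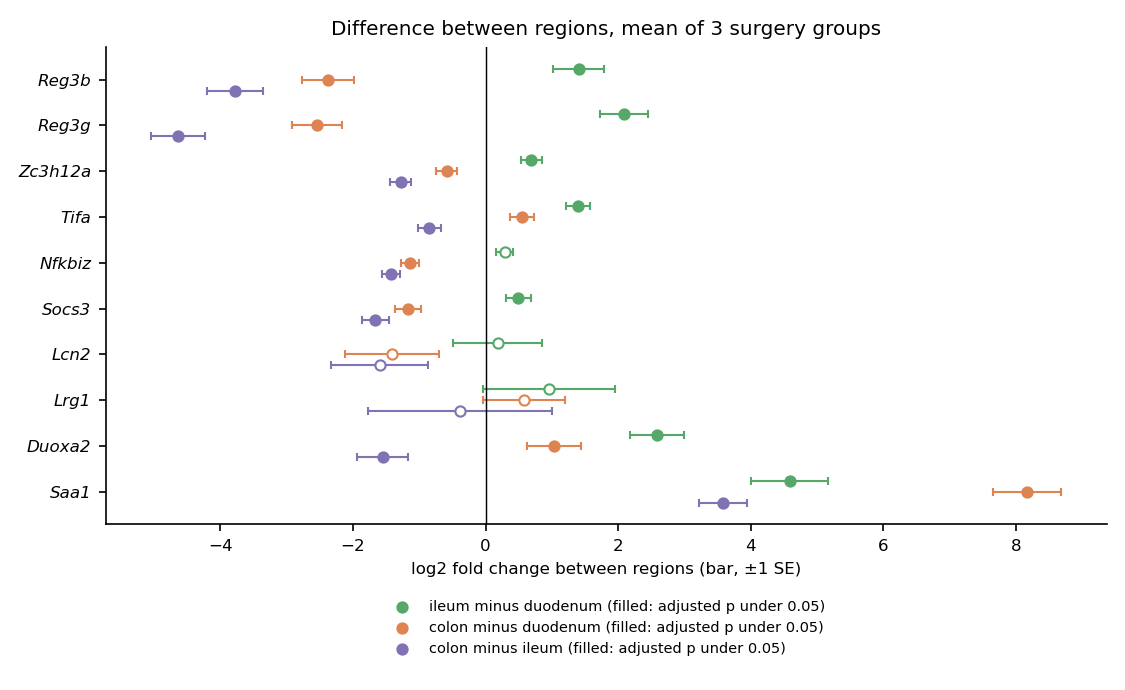
Log2 fold change of each gene between regions (bar, 1 SE on each side), as the mean of the 3 surgery groups. Filled points passed the adjusted threshold; 7 genes are filled for ileum minus duodenum, and Saa1 is the only gene higher in the colon than in the ileum.

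The second library index followed the region: the 16 duodenum libraries carried D501 or D502, 12 of them D502, and 15 of the 16 colon libraries D503 or D504. Within the duodenum it also followed surgery. Every VSG library there carried D502, and D501 was carried by sham ad libitum mice 12, 13 and 32 and by weight-matched mouse 27. With this index as a covariate, the call between ileum and duodenum remained for Tifa alone (1.202, adjusted p = 0.0239), and Reg3g had 1.19 (adjusted p = 0.275) and Reg3b 0.63 (adjusted p = 0.642). For Reg3b, Reg3g, Zc3h12a, Socs3, Duoxa2 and Saa1 the order of ileum above duodenum therefore rests on the fit without the index. Between colon and ileum the 8 calls were kept, from Reg3g at -4.72 (adjusted p = 4.23e-10) to Duoxa2 at -1.57 (adjusted p = 0.0141). Between colon and duodenum 6 of the 8 calls were kept, Tifa (0.32, adjusted p = 0.638) and Duoxa2 (-0.60, adjusted p = 0.695) lost theirs, so that their order of colon above duodenum rests on the fit without the index, and Lcn2 passed (-4.19, adjusted p = 0.0439). D502 was used in the duodenum alone. This fit therefore tied the duodenum to the other regions through its 4 D501 libraries, all from sham mice, with mouse 27 among them. The index and the duodenum cannot be fully told apart.

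The other genes of the same pathways, from 7 lists written by function with earlier results of these data known, gave few calls with surgery. Of 134 listed genes other than the 10, 110 were tested. In VSG against sham ad libitum 0 of 110 passed in the mean of the 3 regions, with 20 under an unadjusted p of 0.05, and against sham weight-matched 0 passed, also with 20. Of all 15126 genes tested, 837 and 1500 were under that unadjusted p in these contrasts. DESeq2 called 1 of the 110 in each, Itln1 and Cebpd, and limma voom 0. The Duoxa2 partner Duox2 had log2 fold changes of 1.01 (SE 0.38, adjusted p = 0.704) and 0.93 (SE 0.38, adjusted p = 0.373) in these contrasts, and Cebpd, a transcription factor gene of the acute phase response, 0.61 (SE 0.17, adjusted p = 0.256) and 0.62 (SE 0.17, adjusted p = 0.107). All 7 tested genes of the dual oxidase and epithelial oxidase list were positive in both contrasts, with medians of 0.49 and 0.37. Over all lists, 62 and 50 of the 110 genes were positive, with medians of 0.04 and -0.03. In the interferon response list 4 and 2 of 16 were positive. Of all genes tested, 52.4% and 50.5% were positive. Within regions the interferon list was mixed. Against sham ad libitum 12, 12 and 2 of its 16 genes were positive in duodenum, ileum and colon. Against sham weight-matched the counts were 3, 8 and 8.

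Within a region, 2 antimicrobial genes fell in VSG against sham weight-matched mice, both in the duodenum. Itln1, which encodes a lectin of Paneth and goblet cells, fell by 2.40 on the log2 scale (SE 0.54, adjusted p = 0.0463), and Reg1, a paralog of the Reg3 lectins, fell by 1.95 (SE 0.45, adjusted p = 0.0477). Reg1 was at 76.1, 93.3, 98.9 and 150 CPM in 4 weight-matched libraries and at 983 CPM in that of mouse 27, against 28.2 to 110 CPM in VSG libraries. Without mouse 27's library neither passed, with -1.31 (SE 0.48, adjusted p = 1) for Itln1 and -0.53 (SE 0.32, adjusted p = 1) for Reg1. A surgery effect that differed between regions was called for 0 of 110 genes by edgeR's joint test, with 8 under an unadjusted p of 0.05 and a lowest adjusted p of 0.974, and for 0 of all 15126.

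Between regions, 52 of the 110 pathway genes changed from duodenum to ileum, 40 of them rising, 74 from duodenum to colon and 70 from ileum to colon, of which 47 fell, where 33.8%, 55% and 49.2% of all genes changed. With the index as a covariate, 14 in place of 52 and 38 in place of 74 were called. Duox2 rose from duodenum to ileum by 2.55 (SE 0.40, adjusted p = 2.01e-06), as Duoxa2 had, and Nos2, the inducible nitric oxide synthase, by 3.85 (SE 0.44). Tlr4, the receptor for lipopolysaccharide, was higher in the colon than in the duodenum by 7.56 (SE 0.28, adjusted p = 3.1e-27), and Il1rn, the antagonist of the interleukin-1 receptor, by 7.05 (SE 0.38). Reg1 differed between colon and duodenum by -8.61 (SE 0.45), and Retnlb, a bactericidal protein of goblet cells, by 7.27 (SE 0.53). The antimicrobial list had 5 genes that rose and 2 that fell from duodenum to ileum, and 4 that rose and 7 that fell from ileum to colon.

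Variation among mice of 1 group was described by correlation. After removal of the 9 group means, 41 of the 45 pairs of the 10 genes had a positive Pearson r over the 48 libraries, with a median of 0.34 and a range from -0.24 (Socs3 with Saa1) to 0.90 (Reg3b with Reg3g). Of all pairs of the 15126 genes, 49.99% were positive, with a median r of 0.00. Saa1 stood apart, with negative r to Socs3, Tifa, Nfkbiz and Zc3h12a. Zc3h12a with Nfkbiz had r = 0.76 and Tifa with Socs3 r = 0.745. All pairs share library depth and scaling, and Reg3b and Reg3g may share reads. The duodenum library of mouse 27 is among the 48, and the correlations between genes were not computed without it. Among all genes tested, the gene most like Reg3b was Reg3g and the reverse, Zc3h12a and Nfkbiz were each other's nearest gene, and so were Tifa and Socs3. Next to Socs3 stood Stat3 (r = 0.71), which encodes the factor that SOCS3 restrains, and Alpk1 (0.64). Tifa had Smc2 (0.68) and Mcm6 (0.67) as its next genes after Socs3. Nearest to Duoxa2 was Duox2 (0.68), to Lcn2 Gsr (0.69), the gene of glutathione reductase, to Lrg1 Pdia4 (0.66) and to Saa1 Slc10a2 (0.67), the ileal bile acid transporter.

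**Figure D5:**
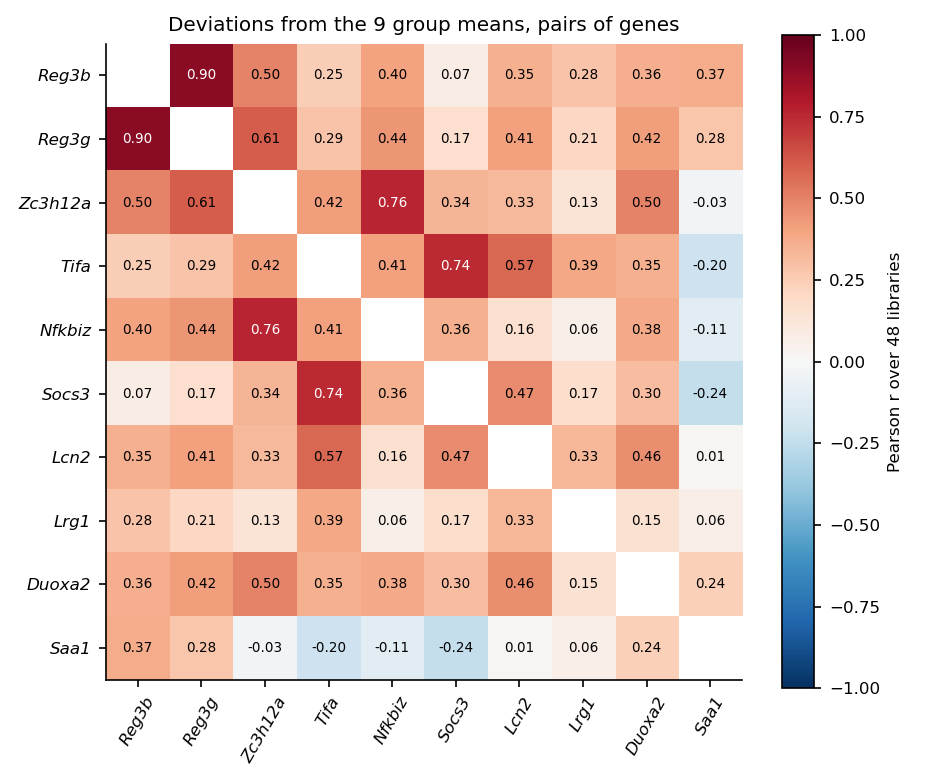
Pearson r between the 10 genes over 48 libraries, computed on deviations of log2 CPM from the 9 group means. The darkest cells are Reg3b with Reg3g (0.90), Zc3h12a with Nfkbiz (0.76) and Tifa with Socs3, and Saa1 has the 4 negative values.

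Deviations of a mouse from its group were also compared between regions. Between duodenum and ileum, over 15 mice and within surgery groups, r was positive for 10 of 10 genes, from 0.19 (Duoxa2) to 0.76 (Zc3h12a), where the median over all genes was 0.13. For Zc3h12a Spearman's rho was 0.754, and r was 0.60 without the 2 mice farthest from the median, 13 and 32. Without the 2 farthest mice, Lrg1 fell from 0.33 to 0.03 and Duoxa2 from 0.19 to 0.05. Between duodenum and colon, over 15 mice, 6 of the 10 genes were negative and r ran from -0.42 (Lcn2) to 0.42 (Nfkbiz), where the median over all genes was 0.16. Without its 2 farthest mice, 27 and 32, Nfkbiz fell to 0.13. Zc3h12a turned from -0.10 to 0.45 without mice 13 and 32, and Reg3g from -0.20 to 0.07 without mice 13 and 27. Tifa, Lcn2, Lrg1 and Duoxa2 stayed negative without their 2 farthest mice. Between ileum and colon, over 16 mice, r ran from -0.41 (Lcn2) to 0.53 (Saa1), around a median of 0.14 over all genes. Within the VSG group the highest ileum library came from mouse 25 for Reg3b, Reg3g and Saa1, from mouse 22 for Tifa, Nfkbiz and Socs3, from mouse 28 for Zc3h12a, Lcn2 and Duoxa2 and from mouse 11 for Lrg1. In the colon, mouse 11 was highest for Zc3h12a, Nfkbiz, Lrg1, Duoxa2 and Saa1, mouse 18 for Tifa, Socs3 and Lcn2 and mouse 25 for both lectins.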

How the data were processed

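EECs were sorted from 3 intestinal regions of 17 mice and sequenced as 48 libraries. Per the labels and the study's methods, the authors aligned reads to GRCm38 with STAR 2.5.1 after CASAVA and deposited whole-number read counts per gene, without normalization. The strand setting of the counting was not given in the sources used here. Depth ran from 4648651 to 17182463 counts, so levels near 0 rest on few counts and intervals cover counting error only. Counts were scaled by TMM and fitted with edgeR 4.0.16 in R 4.3.3 (filterByExpr, robust quasi-likelihood, 9 means of surgery and region), with Benjamini-Hochberg adjustment over 15126 genes at 0.05. The SE is the log2 fold change divided by the root of F. Log2 CPM used a prior count of 2. The members and lists were chosen with earlier results of these data known. All 10 members are named, with pathway genes called with surgery (up to 3 of lowest p a direction). Some of the 2 largest changes a list among those called between regions are named too. Of the 3 genes most correlated with each member, the first is named, with the next 2 for Tifa and Socs3 only. Alternatives were DESeq2 1.42.0, its size factors in edgeR, limma 3.58.1 voom, other filters, the library index, and leaving out each mouse or doubtful library. Libraries share a mouse by label. Deviations of the 46 same-mouse pairs correlated at a median r of 0.105 (-0.02 to 0.389), so regions were also fitted with the mouse as a block. The scripts were tested on simulated data. Motifs were searched in RefSeq promoters of GRCm38.p6. None of the 105 library pairs within a group of surgery and region agreed within sampling noise, and pairs across groups were not compared.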

Additional observations from a re-analysis of the deposited data

Results flagged for a closer look

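In 81 groups of 5 or 6 libraries, 8 held a library that stood apart from the rest by Dixon's test at the 95% level, which chance alone flags in about 1 of 20 groups. In the colon, Tifa was at 157.7 CPM in VSG mouse 18 against 48.4 to 62.7 CPM in the other VSG mice, and Lcn2 at 5.515 CPM in the same library against 0 to 0.401 CPM. Reg3g was at 58.02 CPM in the colon of sham ad libitum mouse 32 against 14.3 to 17.9 CPM, and Nfkbiz at 37.05 CPM in that of sham ad libitum mouse 24 against 19.3 to 22.3 CPM. Among weight-matched colon libraries, Tifa was lowest in mouse 29 at 33.5 CPM against 43.6 to 48.4 CPM, and Saa1 highest in mouse 27 at 84.06 CPM against 47.1 to 55.6 CPM. Lcn2 was at 1.592 CPM in the duodenum of sham ad libitum mouse 13 against 0 to 0.123 CPM, and at 1.136 CPM in the ileum of weight-matched mouse 27 against 0 to 0.160 CPM. These last levels rest on few counts.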

How the results depend on the processing

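With the second library index as a covariate, 1 of the 10 genes was called between ileum and duodenum in place of 7, and the pathway genes called were 14 between ileum and duodenum in place of 52 and 38 between colon and duodenum in place of 74. In the same fit the sign turned for Nfkbiz (-0.056), Socs3 (-0.054) and Lcn2 (-1.81) between ileum and duodenum and for Duoxa2 (-0.60) between colon and duodenum. Pathway genes called in VSG against weight-matched mice in the duodenum were 0 in place of 2 without a low-count filter, under limma voom with a replicate block, without the duodenum library of mouse 27 and with the index, and 1 without the ileum and colon libraries of mouse 12. They ranged from 0 to 3 when each mouse was left out in turn, being 0 without any of mice 11, 13, 17, 18, 19, 22, 24, 25, 27, 28 and 30, and 1 without mouse 12. In the mean of the 3 regions the count was 1 in place of 0 under DESeq2 against each sham group, and against weight-matched mice 1 without the duodenum library of mouse 27, with a range of 0 to 1 over mice left out, being 1 without mouse 27. Leaving out mice gave -0.36 to 1.03 for Lcn2 between ileum and duodenum, with -0.02 without mouse 12, and -0.69 to 0.20 for Lrg1 between colon and ileum. Under the replicate block, with the mouse as a random block in limma voom, 8, 8 and 9 of the 10 genes were called between ileum and duodenum, colon and duodenum, and colon and ileum, and with the mouse as a fixed replicate block in edgeR 7, 8 and 8. The cause of these changes was not tested.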
